A study of Homo sapiens with 12 samples.

Results

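The constitutive proteasome is encoded by 34 genes in the list followed here, named PSMA1 to PSMA7, PSMB1 to PSMB7, PSMC1 to PSMC6 and PSMD1 to PSMD14. The genes were chosen by symbol, and each was read from the probe set with the highest mean over all arrays. Of the 34 genes, 30 had a probe set that names 1 gene, and all 30 passed the filter on low signal, among 10265 genes tested. PSMA6, PSMC5, PSMD7 and PSMD13 were not analysed here. The probe sets of PSMA6 name a second gene too. The 30 genes comprised 13 of the 20S core, with 6 alpha and 7 beta subunits, and 17 of the 19S regulatory particle, with 5 ATPases, 9 non-ATPases and 3 assembly chaperones.

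The arrays came from LNCaP, an established androgen-responsive line from human prostate cancer, and the design crossed siRNA with androgen. Its 4 groups of 3 arrays each were SRF siRNA with R1881, SRF siRNA with vehicle, control siRNA with R1881, and control siRNA with vehicle. R1881 is a synthetic androgen, given at 5 nM for 48 h against ethanol, starting 42 h after transfection. All 4 groups had been kept without androgen for 48 h before they were transfected. The labels call the arrays biological replicates but do not name the cultures behind them, and the p-values therefore cover the spread among arrays of 1 cell line, which may be technical.

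The proteasome is the ATP-dependent protease that destroys proteins marked with ubiquitin. Its barrel-shaped 20S core is a stack of alpha and beta rings: the alpha rings gate the entrance, and the catalytic beta subunits PSMB5, PSMB6 and PSMB7 cut the substrate inside. The 19S particle caps the core. Its PSMC ATPases unfold the substrate and its PSMD non-ATPases recognise ubiquitin, hold the cap together and, in PSMD14, remove the ubiquitin chain. When proteasome activity is short, the transcription factor NFE2L1 is known to raise many subunit genes together through antioxidant response elements in their promoters.

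Signal is given throughout as the log2 GCRMA value of a probe set, in which 1 unit is a doubling, and a fold or percentage as its antilog. Arrays of 1 group correlated at 0.993 to 0.996 over the genes tested, and arrays of different groups at 0.879 to 0.96. SRF itself read 4.89, 4.98 and 4.73 with SRF siRNA and R1881, 4.56, 5.06 and 4.58 with SRF siRNA and vehicle, 6.50, 6.25 and 6.16 with control siRNA and R1881, and 5.91, 6.14 and 6.17 with control siRNA and vehicle. The SRF siRNA arrays all lay below the control arrays, at 36.9% of the control signal in R1881 and 39.5% in vehicle, so SRF was lowered and not removed. Of the 7 luminal prostate markers, 5 had a probe set and all 5 passed the filter. Of the basal or mesenchymal markers VIM alone passed, and of the fibroblast markers COL1A1 alone. No leukocyte marker passed, the highest of them at 3.21.

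An RNA quality measure moved with the groups and stands beside the counts that follow. The GAPDH control probe sets read more at the 3-prime than at the 5-prime end by 0.49 ± 0.14 with SRF siRNA and R1881, by 0.36 ± 0.04 with SRF siRNA and vehicle, and by 0.46 ± 0.02 with control siRNA and R1881, against 0.14 ± 0.09 with control siRNA and vehicle (SD, n = 3 each). The difference in control cells, 0.32 higher in R1881, had an exact two-sided permutation p of 0.1, the smallest that 3 against 3 arrays can give. The part of this measure in the results was not tested beyond the counts given with it as a covariate. VIM, a mesenchymal marker, was 1.93 higher with SRF siRNA than with control siRNA in R1881 and 0.98 higher in vehicle. Of the 4 basal or mesenchymal markers 3 had a probe set. Their summed signal, on the log2 scale, ran from 8.13 to 8.47 with SRF siRNA and R1881, from 7.74 to 7.85 with SRF siRNA and vehicle, from 6.44 to 6.51 with control siRNA and R1881, and from 6.83 to 6.96 with control siRNA and vehicle. That sum is mostly VIM, as KRT5 and KRT14 lay below the filter, at no more than 1.96 and 3.34. The part of VIM in the results was not tested.

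R1881 in control siRNA cells was followed by higher signal for most regulatory particle genes and a mixed pattern in the core. A gene was called when limma's adjusted p, over all 10265 genes, was under 0.05. Of the 30 genes, 16 rose, where 26.9% of all genes rose, and 4 fell, where 33.8% of all genes fell. In the regulatory particle 12 of 17 genes rose and 1 fell, with a median change of 0.28. Without its assembly chaperones 10 of 14 rose and 1 fell, with a median of 0.30. In the core 4 of 13 rose and 3 fell, with a median of 0.12. The median over the 30 was 0.21, against -0.05 over all genes. Of the 30 genes 3 were called with a change of at least 1.5-fold, against 31% of all genes, and those were PSMD8, PSMD5 and PSMC2. After quantile normalization 12 of the 30 rose and 4 fell, and 61% of all genes were called in either direction. With the GAPDH difference as a covariate 8 genes were called, 5 higher (PSMD8, PSMD5, PSMC2, PSMD12 and PSMD14) and 3 lower (PSMA4, PSMD4 and PSMB1), and 38.2% of all genes were called in either direction, against 60.6% without the covariate. The arrays measure RNA pooled from each culture, so a change in all cells and a change in the share of cells expressing a gene cannot be told apart.

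**Figure D1:**
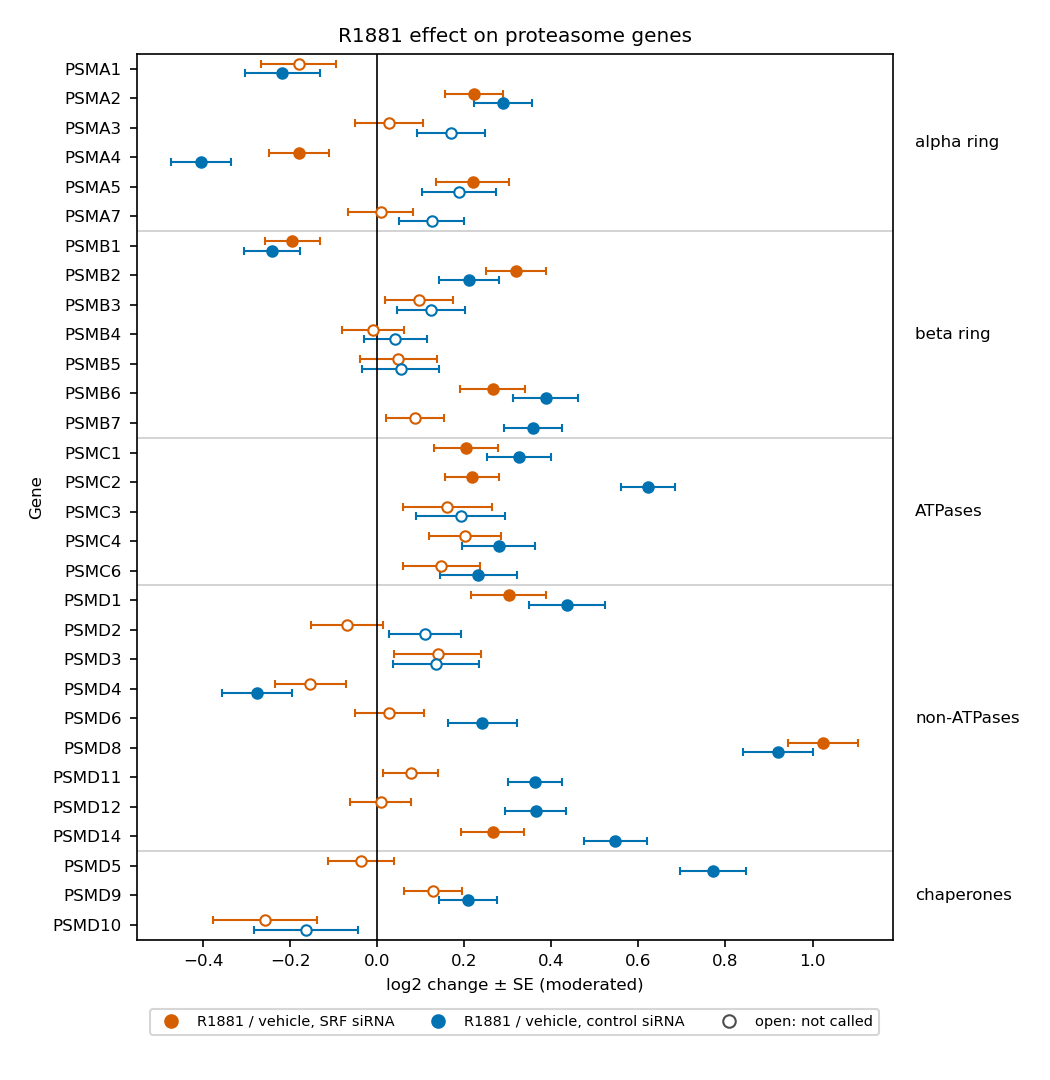
Log2 change with R1881 against vehicle for the 30 proteasome genes (rows, by role), in SRF siRNA cells and in control siRNA cells; points are limma estimates, bars are ± 1 SE, and open points did not pass adjusted p under 0.05. In control cells PSMD8, PSMD5 and PSMC2 lie farthest to the right and PSMA4 farthest to the left, and PSMD8 alone lies near 1 in SRF siRNA cells.

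R1881 in SRF siRNA cells gave 9 genes that rose, where 25.5% of all genes rose, and 2 that fell, where 27.7% of all genes fell. The regulatory particle held 5 of the risers and the core 4. The fallers were PSMA4 and PSMB1, both of the core. The median change over the 30 genes was 0.09, against -0.03 over all genes. The 2 R1881 comparisons share no arrays. Of the genes that rose, 8 were common to both, which is 88.9% of the 9 in SRF siRNA cells and 50% of the 16 in control cells. Over all genes tested the genes that rose in both were 71.8% of the risers in SRF siRNA cells and 68.1% of those in control cells. The 8 proteasome genes were the core genes PSMA2, PSMB2 and PSMB6, the ATPases PSMC1 and PSMC2, and the non-ATPases PSMD1, PSMD8 and PSMD14. With the GAPDH difference as a covariate 4 genes were called, PSMD8 and PSMB2 higher and PSMB1 and PSMD4 lower, and 46.9% of all genes, against 53.1% without it. PSMD4 was not called without the covariate. Without the second array of the SRF siRNA vehicle or R1881 group 7 were called, and 46.9% or 47.5% of all genes. With array 3 of both SRF siRNA groups left out 5 were called, 2 higher and 3 lower, and 45.7% of all genes.

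The promoters of PSMD8, PSMD5 and PSMA4 are printed because PSMD8 and PSMD5 rose most, and PSMA4 fell most, with R1881 in control cells. Each runs 5′ to 3′ along the gene, from 250 bases before its annotated start to 50 bases after it, in RefSeq's GRCh38.p14 table. PSMD8 lies at chr19:38374321-38374620 on the plus strand, PSMD5 at chr9:120842873-120843172 on the minus strand, and PSMA4 at chr15:78540155-78540454 on the plus strand. Capitals in PSMD8 mark a CCAAT box read on the opposite strand, 88 to 84 bases before the start. Capitals in PSMD5 mark an antioxidant response element core, 134 to 126 bases before the start. The PSMA4 window, the first of 3 listed for the gene, held none of the 4 motifs searched.
PSMD8: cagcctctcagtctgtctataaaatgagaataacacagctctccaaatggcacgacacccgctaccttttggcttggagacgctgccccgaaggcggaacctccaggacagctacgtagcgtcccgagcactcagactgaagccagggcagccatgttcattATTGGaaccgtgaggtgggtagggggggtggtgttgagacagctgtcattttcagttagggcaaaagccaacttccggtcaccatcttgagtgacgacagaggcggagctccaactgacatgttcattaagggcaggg
PSMD5: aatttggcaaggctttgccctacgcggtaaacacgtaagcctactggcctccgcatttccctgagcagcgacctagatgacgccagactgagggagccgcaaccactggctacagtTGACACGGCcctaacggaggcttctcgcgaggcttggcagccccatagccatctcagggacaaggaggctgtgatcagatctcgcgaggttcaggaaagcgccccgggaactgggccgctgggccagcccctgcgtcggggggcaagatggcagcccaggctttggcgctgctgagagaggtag
PSMA4: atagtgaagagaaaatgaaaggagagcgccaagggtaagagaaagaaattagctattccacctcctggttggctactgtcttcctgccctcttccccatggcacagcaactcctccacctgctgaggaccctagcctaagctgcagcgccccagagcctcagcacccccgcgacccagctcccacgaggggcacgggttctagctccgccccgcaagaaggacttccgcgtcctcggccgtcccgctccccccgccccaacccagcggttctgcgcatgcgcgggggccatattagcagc

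The motifs were searched on both strands of the first window listed for each gene. The antioxidant response element core, TGAC then any 3 bases then GC, was present in 7 of the 29 listed members with a window, 24.1% against 13.6% of 27305 genes. These 7 were PSMB3, PSMC4, PSMD1, PSMD3, PSMD5, PSMD9 and PSMD12. CCAAT was present in 15 of 29, 51.7% against 35.7% of all genes. TGTTCT, the shorter unit of an androgen response element, was present in 4 of 29, 13.8% against 14.9%. The CArG box, the site that SRF binds, was present in 0 of 29, against 1.29% of all genes. These matches describe letters in a short window and are no evidence of binding.

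PSMD8, a lid subunit that in yeast is the last to join, had the largest R1881 response of the set in both siRNA states. Its arrays read 12.46, 12.40 and 12.40 with SRF siRNA and R1881, against 11.55, 11.38 and 11.25 with SRF siRNA and vehicle, and 12.28, 12.28 and 12.21 with control siRNA and R1881, against 11.25, 11.40 and 11.35 with control siRNA and vehicle. Every R1881 array lay above every vehicle array, whichever siRNA was used. R1881 raised the signal by 1.02 ± 0.08 (SE), or 2.03-fold, in SRF siRNA cells and by 0.92 ± 0.08, or 1.89-fold, in control cells (limma adjusted p 5.85e-07 and 1.02e-06, n = 3 each). The difference between the 2 effects, 0.10, was not called (adjusted p = 0.562). SRF silencing gave 0.16 in R1881 and 0.06 in vehicle, neither called.

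The lid deubiquitinase PSMD14 responded to both treatments. Its arrays read 10.89, 10.98 and 11.00 with SRF siRNA and R1881, 10.83, 10.61 and 10.64 with SRF siRNA and vehicle, 10.52, 10.51 and 10.57 with control siRNA and R1881, and 9.94, 10.04 and 9.98 with control siRNA and vehicle. The 4 groups did not overlap and ran in that order from highest to lowest. R1881 raised it by 0.27 ± 0.07 in SRF siRNA cells and 0.55 ± 0.07 in control cells (adjusted p 0.00904 and 3.89e-05). SRF silencing raised it by 0.42 ± 0.07 in R1881 and by 0.71 ± 0.07, or 1.63-fold, in vehicle (adjusted p 0.000321 and 6.96e-06), the largest rise of the set after silencing in either medium.

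PSMD1, the large scaffold of the base, read 10.12, 10.31 and 10.45 with SRF siRNA and R1881, against 10.06, 10.03 and 9.90 with SRF siRNA and vehicle, and 10.32, 10.32 and 10.37 with control siRNA and R1881, against 9.83, 9.93 and 9.93 with control siRNA and vehicle. R1881 arrays lay above vehicle arrays within each siRNA state. The rise was 0.30 ± 0.09 in SRF siRNA cells and 0.44 ± 0.09 in control cells (adjusted p 0.0114 and 0.000883). SRF silencing gave -0.04 in R1881 and 0.09 in vehicle, neither called.

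The lid subunits PSMD12 and PSMD11, the second of which bridges the lid to the core, shared a pattern in which the control vehicle arrays stood lowest. PSMD12 read 9.96, 9.96 and 9.89 with SRF siRNA and R1881, 9.98, 9.92 and 9.87 with SRF siRNA and vehicle, 9.97, 10.07 and 9.98 with control siRNA and R1881, and 9.75, 9.55 and 9.63 with control siRNA and vehicle. PSMD11 averaged 9.80 ± 0.03 with SRF siRNA and R1881, 9.72 ± 0.05 with SRF siRNA and vehicle, 9.82 ± 0.01 with control siRNA and R1881, and 9.46 ± 0.07 with control siRNA and vehicle (SD, n = 3 each). For both genes all 9 other arrays lay above the 3 control vehicle arrays. In SRF siRNA cells the R1881 change was 0.01 for PSMD12 and 0.08 for PSMD11, neither called. In control cells R1881 raised PSMD12 by 0.36 ± 0.07 and PSMD11 by 0.36 ± 0.06 (adjusted p 0.000701 and 0.000294). The GAPDH 3-prime to 5-prime difference was also lowest in the control vehicle group. With it as a covariate PSMD12 kept its call in control cells and PSMD11 did not (limma adjusted p = 0.0512). The PSMD11 change in control cells stayed between 0.33 and 0.40 under every alternative.

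PSMD6, a lid subunit, was lower after SRF silencing. Its arrays read 10.66, 10.79 and 10.71 with SRF siRNA against 11.23, 11.25 and 11.20 with control siRNA in R1881, and 10.81, 10.59 and 10.66 with SRF siRNA against 10.89, 10.96 and 11.10 with control siRNA in vehicle. All 6 SRF siRNA arrays lay below all 6 control arrays. PSMD6 was at 70.3% of its control signal in R1881 and 81.5% in vehicle (log2 -0.51 ± 0.08 and -0.29 ± 0.08, adjusted p 0.000153 and 0.00777). Its R1881 change was 0.03 in SRF siRNA cells, not called, and a rise of 0.24 ± 0.08 in control cells (adjusted p = 0.0194).

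PSMD4, a ubiquitin receptor of the cap, was the only regulatory particle gene that fell with R1881 in control cells. With SRF siRNA it read 10.45, 10.49 and 10.70 in R1881 and 10.68, 10.75 and 10.66 in vehicle, groups that overlapped, a difference of -0.15 that was not called. With control siRNA it read 10.20, 10.37 and 10.26 in R1881 against 10.53, 10.61 and 10.51 in vehicle, groups that did not overlap, and fell to 82.5% of the vehicle signal (log2 -0.28 ± 0.08, adjusted p = 0.0104). SRF silencing raised it by 0.27 ± 0.08 in R1881 (adjusted p = 0.0127). The remaining non-ATPases, PSMD2 and PSMD3, are a base scaffold that docks ubiquitin carriers and a lid subunit. Neither was called for R1881 in either siRNA state.

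**Figure D2:**
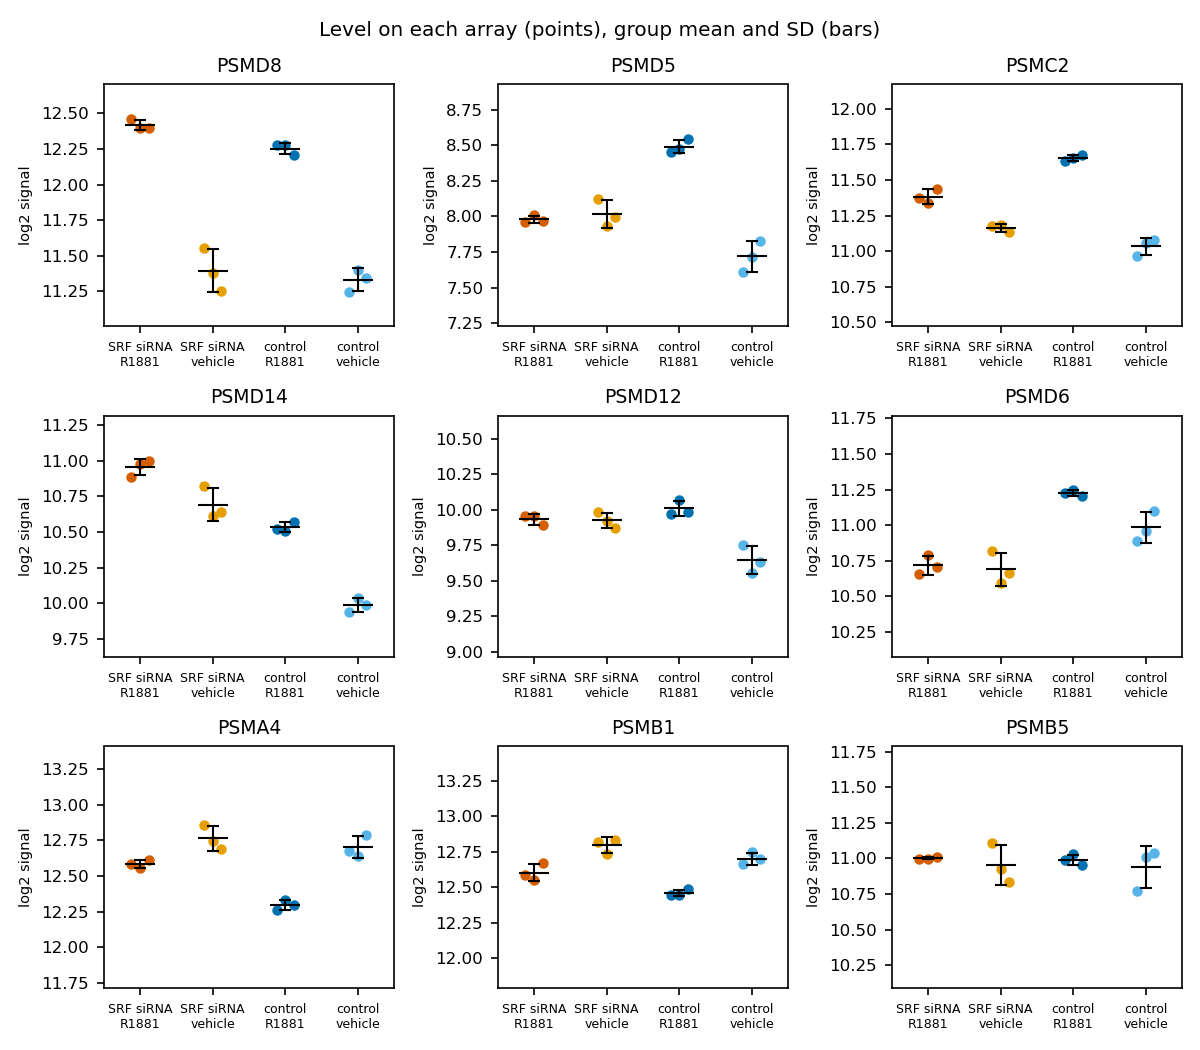
Log2 GCRMA signal of 9 proteasome genes on each of the 12 arrays (1 panel per gene, all panels with the same span on the y axis); columns are the 4 groups, points are arrays, and bars are the group mean ± SD (n = 3). PSMD8 is higher on every R1881 array, PSMD14 steps down across the 4 groups, PSMD6 is lower on every SRF siRNA array, and for PSMD5 and PSMC2 the control R1881 arrays stand highest and the control vehicle arrays lowest.

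PSMD5 is a chaperone that assists assembly of the ATPase ring, where its partner is PSMC2, and is not part of the finished particle. Its arrays read 7.96, 8.01 and 7.97 with SRF siRNA and R1881, 8.12, 7.93 and 7.99 with SRF siRNA and vehicle, 8.45, 8.48 and 8.54 with control siRNA and R1881, and 7.61, 7.71 and 7.83 with control siRNA and vehicle. The control R1881 arrays were the highest, the control vehicle arrays the lowest, and both SRF siRNA groups lay between them and overlapped each other. The R1881 change of PSMD5 was -0.04 in SRF siRNA cells, not called, and a rise of 0.77 ± 0.08, or 1.71-fold, in control cells (adjusted p = 2.66e-06). SRF silencing went opposite ways in the 2 media: PSMD5 fell to 70.2% of control in R1881 and rose 1.23-fold in vehicle (adjusted p 9.67e-05 and 0.00542). Of the other 2 chaperones, PSMD9 rose by 0.21 ± 0.07 with R1881 in control cells (adjusted p = 0.0169). PSMD10, known as gankyrin, had an R1881 change of -0.26 in SRF siRNA cells and -0.16 in control cells, neither called.

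Among the ATPases 2 of 5 rose with R1881 in SRF siRNA cells, with a median of 0.20, and 4 of 5 in control cells, with a median of 0.28, where 25.5% and 26.9% of all genes rose. PSMC2 read 11.37, 11.34 and 11.44 with SRF siRNA and R1881, 11.18, 11.19 and 11.13 with SRF siRNA and vehicle, 11.63, 11.65 and 11.68 with control siRNA and R1881, and 10.96, 11.06 and 11.08 with control siRNA and vehicle. No 2 of its groups overlapped. R1881 raised it by 0.22 ± 0.06 in SRF siRNA cells and by 0.62 ± 0.06, or 1.54-fold, in control cells (adjusted p 0.011 and 3.26e-06). This rests on 1 of 3 probe sets: the other two changed by 0.39 and -0.11 in control cells.

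PSMC3 was the one ATPase not called for R1881 in control cells, at 0.19. It read 9.72, 9.78 and 9.66 with SRF siRNA against 10.05, 10.05 and 10.01 with control siRNA in R1881, where the groups did not overlap. It read 9.74, 9.55 and 9.39 with SRF siRNA against 9.66, 9.86 and 10.01 with control siRNA in vehicle, where they did. SRF silencing lowered it by limma in both media, to 80.3% of control in R1881 and 82% in vehicle (adjusted p 0.018 and 0.0314). The call in vehicle was lost under 11 of 26 alternatives.

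In the alpha ring 2 of 6 genes rose and 1 fell with R1881 in SRF siRNA cells, while 1 rose and 2 fell in control cells. Of all genes 25.5% rose and 27.7% fell in SRF siRNA cells, and 26.9% rose and 33.8% fell in control cells. The genes that fell in control cells were PSMA4 and PSMA1. PSMA4 read 12.58, 12.55 and 12.62 with SRF siRNA and R1881, against 12.86, 12.74 and 12.69 with SRF siRNA and vehicle, and 12.26, 12.33 and 12.30 with control siRNA and R1881, against 12.68, 12.64 and 12.79 with control siRNA and vehicle. R1881 arrays lay below vehicle arrays within each siRNA state, and the control R1881 arrays were the lowest of all. R1881 left 88.3% of the vehicle signal in SRF siRNA cells and 75.5% in control cells (log2 -0.18 ± 0.07 and -0.40 ± 0.07, adjusted p 0.0447 and 0.000288). In SRF siRNA cells the call was lost under 15 of 26 alternatives. The PSMA1 change in control cells, -0.22 ± 0.09, was lost under 14 of 26. PSMA5, which rose by 0.22 ± 0.08 in SRF siRNA cells (limma adjusted p = 0.044), lost that call under 18 of 26.

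PSMA2 was the alpha gene that rose with R1881 in control cells and was lower after silencing. It read 11.50, 11.63 and 11.59 with SRF siRNA against 11.80, 11.93 and 11.86 with control siRNA in R1881, and 11.41, 11.32 and 11.32 with SRF siRNA against 11.58, 11.61 and 11.53 with control siRNA in vehicle. The SRF siRNA arrays lay below the control arrays in each medium, with changes of -0.29 ± 0.07 in R1881 and -0.22 ± 0.07 in vehicle (adjusted p 0.00252 and 0.0136).

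PSMA1 and PSMA5, also alpha subunits, went the other way after silencing. PSMA1 read 11.57, 11.66 and 11.53 with SRF siRNA against 11.25, 11.29 and 11.29 with control siRNA in R1881, and 11.92, 11.70 and 11.67 with SRF siRNA against 11.37, 11.51 and 11.61 with control siRNA in vehicle. PSMA5 read 10.62, 10.69 and 10.68 with SRF siRNA against 10.31, 10.34 and 10.47 with control siRNA in R1881, and 10.59, 10.44 and 10.31 with SRF siRNA against 10.09, 10.19 and 10.28 with control siRNA in vehicle. For both genes the SRF siRNA arrays lay above the control arrays in each medium. Silencing raised PSMA1 by 0.31 ± 0.09 in R1881 and 0.27 ± 0.09 in vehicle, and PSMA5 by 0.29 ± 0.08 and 0.26 ± 0.08 in the same order (limma adjusted p from 0.00893 to 0.0208). Of 26 alternatives 6 lost the PSMA1 call in vehicle and 7 the PSMA5 call, with the PSMA5 change as low as 0.07. In R1881 the calls were lost under 1 for PSMA1 and 2 for PSMA5.

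In the beta ring 2 of 7 genes rose and 1 fell with R1881 in SRF siRNA cells, and 3 rose and 1 fell in control cells, beside the same shares over all genes. Of the 3 catalytic genes PSMB6 was called in both siRNA states, PSMB7 in control cells and PSMB5 in neither. PSMB5, the chymotrypsin-like subunit that proteasome inhibitor drugs bind, read 11.00, 11.00 and 11.01 with SRF siRNA and R1881, 11.11, 10.92 and 10.83 with SRF siRNA and vehicle, 10.99, 11.03 and 10.96 with control siRNA and R1881, and 10.77, 11.01 and 11.04 with control siRNA and vehicle. All its groups overlapped, its 4 contrasts lay between 0.01 and 0.05, and none was called.

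PSMB6, the caspase-like subunit, rose with R1881 in both siRNA states. It read 11.25, 11.24 and 11.28 with SRF siRNA and R1881, against 11.05, 11.00 and 10.93 with SRF siRNA and vehicle, and 11.20, 11.18 and 11.12 with control siRNA and R1881, against 10.80, 10.90 and 10.65 with control siRNA and vehicle. All 6 R1881 arrays lay above all 6 vehicle arrays. The rise was 0.27 ± 0.07 in SRF siRNA cells and 0.39 ± 0.07, or 1.31-fold, in control cells (adjusted p 0.00995 and 0.000692).

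PSMB7, the trypsin-like subunit, read 11.72, 11.86 and 11.87 with SRF siRNA and R1881, 11.77, 11.75 and 11.67 with SRF siRNA and vehicle, 11.86, 11.91 and 11.91 with control siRNA and R1881, and 11.55, 11.57 and 11.49 with control siRNA and vehicle. The control vehicle arrays were the lowest, and the SRF siRNA groups overlapped. Its R1881 change was 0.09 in SRF siRNA cells, not called, and a rise of 0.36 ± 0.07, or 1.28-fold, in control cells (adjusted p = 0.000546). The difference of the 2 effects, -0.27, had an adjusted p of 0.0577.

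Of the structural beta genes, PSMB2 rose and PSMB1 fell in both states. PSMB2 read 10.95, 10.99 and 11.07 with SRF siRNA and R1881 against 10.78, 10.65 and 10.62 with SRF siRNA and vehicle, a rise of 0.32 ± 0.07, and rose by 0.21 ± 0.07 in control cells. PSMB1 read 12.58, 12.55 and 12.67 with SRF siRNA and R1881 against 12.82, 12.74 and 12.84 with SRF siRNA and vehicle, and 12.44, 12.45 and 12.49 with control siRNA and R1881 against 12.66, 12.74 and 12.70 with control siRNA and vehicle. Its R1881 arrays lay below the vehicle arrays within each siRNA state, with changes of -0.20 ± 0.06 in SRF siRNA cells and -0.24 ± 0.06 in control cells (adjusted p 0.0211 and 0.00551).

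SRF silencing on its own, in vehicle, was followed by 12 of the 30 genes higher, where 30.7% of all genes were higher, and 3 lower, where 25% of all genes were lower. The risers were spread over the particle, 6 of 13 in the core and 6 of 17 in the regulatory particle, led by PSMD14, PSMD5 and PSMD12. The 3 lower genes were PSMA2, PSMC3 and PSMD6. The median change was 0.13, against 0.04 over all genes. In vehicle the GAPDH difference was 0.22 higher with SRF siRNA (exact permutation p = 0.1), and with it as a covariate 3 genes were called, PSMD14 and PSMD12 higher and PSMA2 lower, and 38.4% of all genes, against 55.7% without it. Without the first control vehicle array 9 genes were called, 6 higher and 3 lower, and 51.5% of all genes.

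In R1881 the same silencing gave 6 genes higher, where 33.6% of all genes were higher, and 5 lower, where 25.4% of all genes were lower. The split was 10 higher and 5 lower after quantile normalization, and 9 higher and 7 lower with an intensity trend and robust moderation. The median change was 0.02, against 0.06 over all genes. In the core 3 genes rose and 1 fell. In the regulatory particle 3 rose and 4 fell, and the 4 were PSMC2, PSMC3, PSMD5 and PSMD6. The PSMC2 change, -0.27 ± 0.06, became 0.061 when its passing probe sets were averaged (adjusted p = 0.43). The GAPDH difference was 0.03 higher with SRF siRNA here (exact permutation p = 0.8). With it as a covariate 11 genes were again called, 6 higher and 5 lower, and 58.9% of all genes. The silencing comparison in vehicle shares its control vehicle arrays with the R1881 comparison in control cells, and the one in R1881 shares its control R1881 arrays with it, so the values of these comparisons are not independent.

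**Figure D3:**
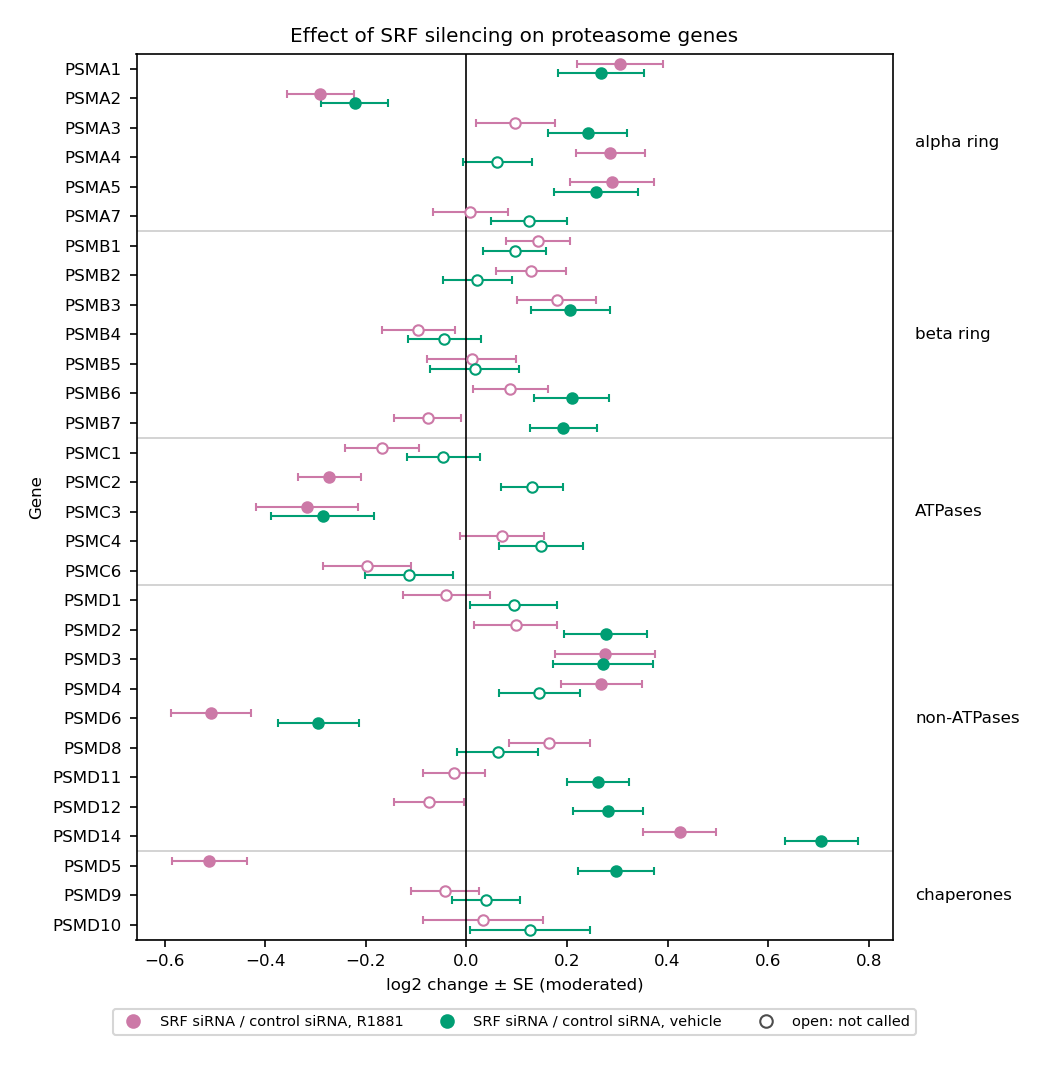
Log2 change with SRF siRNA against control siRNA for the 30 proteasome genes (rows, by role), in R1881 and in vehicle; points are limma estimates, bars are ± 1 SE, and open points did not pass adjusted p under 0.05. PSMD14 lies farthest to the right in both media, PSMD6 lies to the left in both, and PSMD5 lies on opposite sides of 0.

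The R1881 effect itself was compared between SRF siRNA and control siRNA cells with the interaction term of the fit. Of the 30 genes 4 had a lower R1881 effect with SRF siRNA, where 10.5% of all genes did, and 0 had a higher one, where 13.2% of all genes did. At an unadjusted p under 0.05 the counts were 6 lower and 1 higher, and over all 10265 genes 1603 lower and 2037 higher. All 4 were in the regulatory particle set, which here includes the assembly chaperone PSMD5. They were PSMD5 at -0.81 ± 0.11 (limma adjusted p = 0.000225), PSMC2 at -0.40 ± 0.09 (0.00589), PSMD12 at -0.36 ± 0.10 (0.0218) and PSMD11 at -0.29 ± 0.09 (0.0343). PSMD11 falls outside the naming rule and was named after its value was seen, as the remaining 1 of the 4. With the GAPDH difference as a covariate PSMD5, PSMC2 and PSMD12 were called and PSMD11 was not. Of all genes 18.6% were called with it, against 23.8% without it. With the passing probe sets averaged the PSMC2 difference was -0.10 (adjusted p = 0.445). Then 2 genes, PSMD5 and PSMD11, were called, and 25.2% of all genes. The count was 2 without the second control vehicle array, without the second control R1881 array, and with array 3 of both SRF siRNA groups left out. Of all genes 21.1%, 19.7% and 18.5% were called, in that order. The size of the R1881 change was smaller with SRF siRNA for 25 of the 30 genes, 83.3% against 58.8% of all genes, and its sign was the same for 27 of 30, 90% against 79.6% of all genes. The median size was 0.16 with SRF siRNA and 0.24 with control siRNA, and over all genes 0.29 with SRF siRNA and 0.36 with control siRNA.

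**Figure D4:**
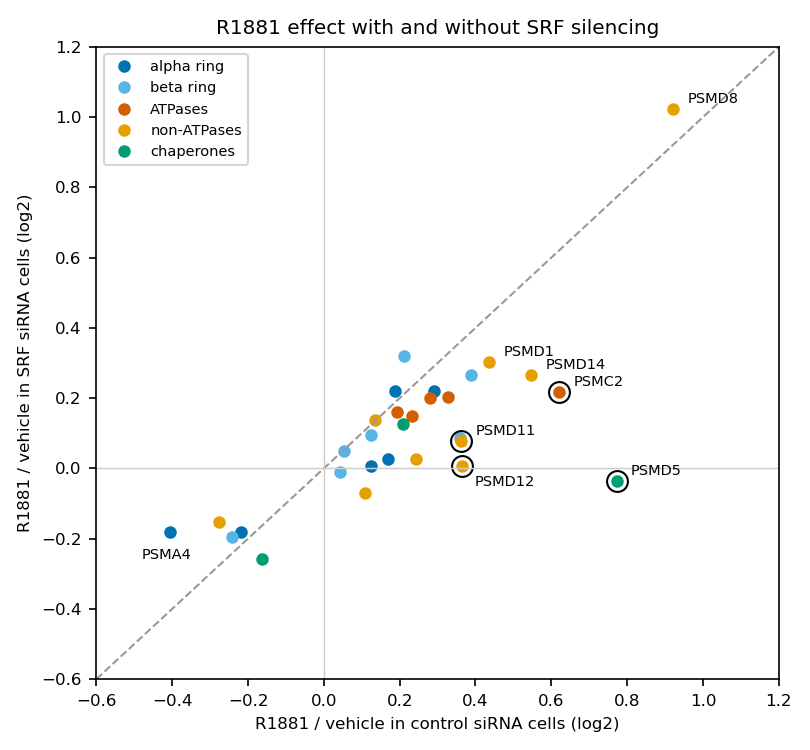
R1881 change in SRF siRNA cells (y axis, log2) against that in control siRNA cells (x axis, log2), 1 point per proteasome gene and coloured by role; the dashed line marks equal changes and circles mark the 4 genes whose difference was called. PSMD8 lies near the line at about 1, and PSMD5, PSMC2, PSMD11 and PSMD12 lie below it.

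For several genes a second probe set that also passed the filter gave another value in the R1881 comparison of control cells. PSMD12 changed by -0.04 on its second probe set, PSMA2 by 0.03, PSMA5 by -0.38 and PSMB4, a structural beta gene, by -0.24, against 0.36, 0.29, 0.19 and 0.04 on the probe sets used. PSMA1, PSMB1, PSMD1 and PSMD4 changed in 1 direction on all their passing probe sets. PSMD5, PSMD8, PSMD11 and PSMD14 rest on 1 passing probe set each.

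Genes that work with the particle were followed by role. With R1881 25.5% of all genes rose and 27.7% fell in SRF siRNA cells, and 26.9% rose and 33.8% fell in control cells. These shares stand beside the R1881 counts of every list that follows. Of 7 other proteins bound to the 19S cap, 4 rose with R1881 in SRF siRNA cells and 6 in control cells. The deubiquitinase UCHL5 rose by 0.28 ± 0.09 in SRF siRNA cells and 0.88 ± 0.09 in control cells, and its effect with SRF siRNA minus that with control siRNA was -0.60 ± 0.13 (adjusted p = 0.00527). The small lid subunit SEM1 rose by 0.19 ± 0.07 in SRF siRNA cells and 0.66 ± 0.07 in control cells, a difference of -0.47 ± 0.10 (adjusted p = 0.0046). The ligase UBE3C was the remaining gene of this list with a called difference, at -0.41 ± 0.12 (adjusted p = 0.0322). After SRF silencing 1 of the 7 rose and 3 fell in R1881, where 33.6% of all genes rose and 25.4% fell. In vehicle 5 of the 7 rose, where 30.7% of all genes rose.

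Among other caps and helpers, 1 of the 4 activator or inhibitor genes tested rose and 1 fell with R1881 in SRF siRNA cells, and 1 rose and 2 fell in control cells. PSME1, of the activator that binds the core in place of the 19S cap, was 0.04 ± 0.11 with R1881 in SRF siRNA cells, not called, and changed by -0.73 ± 0.11 in control cells, with a called difference of 0.77 ± 0.15 (adjusted p = 0.00331). The activator gene PSME4 rose by 0.60 ± 0.07 in SRF siRNA cells and 0.62 ± 0.07 in control cells. Of 6 dedicated assembly chaperones 1 fell with R1881 in SRF siRNA cells and 3 in control cells. PSMG2, which assists assembly of the alpha ring, fell by 0.30 ± 0.08 in SRF siRNA cells and 0.55 ± 0.08 in control cells, and after SRF silencing it was 0.70 ± 0.08 higher in R1881 and 0.45 ± 0.08 higher in vehicle. PAAF1, a base chaperone, was -0.65 in R1881 and -0.56 in vehicle after silencing, called in both. The immunoproteasome subunit PSMB10, the 1 tested of 5 such genes, rose by 0.60 ± 0.14 with R1881 in SRF siRNA cells and was -0.20 in control cells, not called there. The difference of 0.80 was called. After SRF silencing PSMB10 was 0.09 in R1881, not called, and -0.71 in vehicle, called. Its SRF siRNA vehicle mean, 6.72, was the lowest of the 4 groups, against 7.32 with SRF siRNA and R1881.

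**Figure D5:**
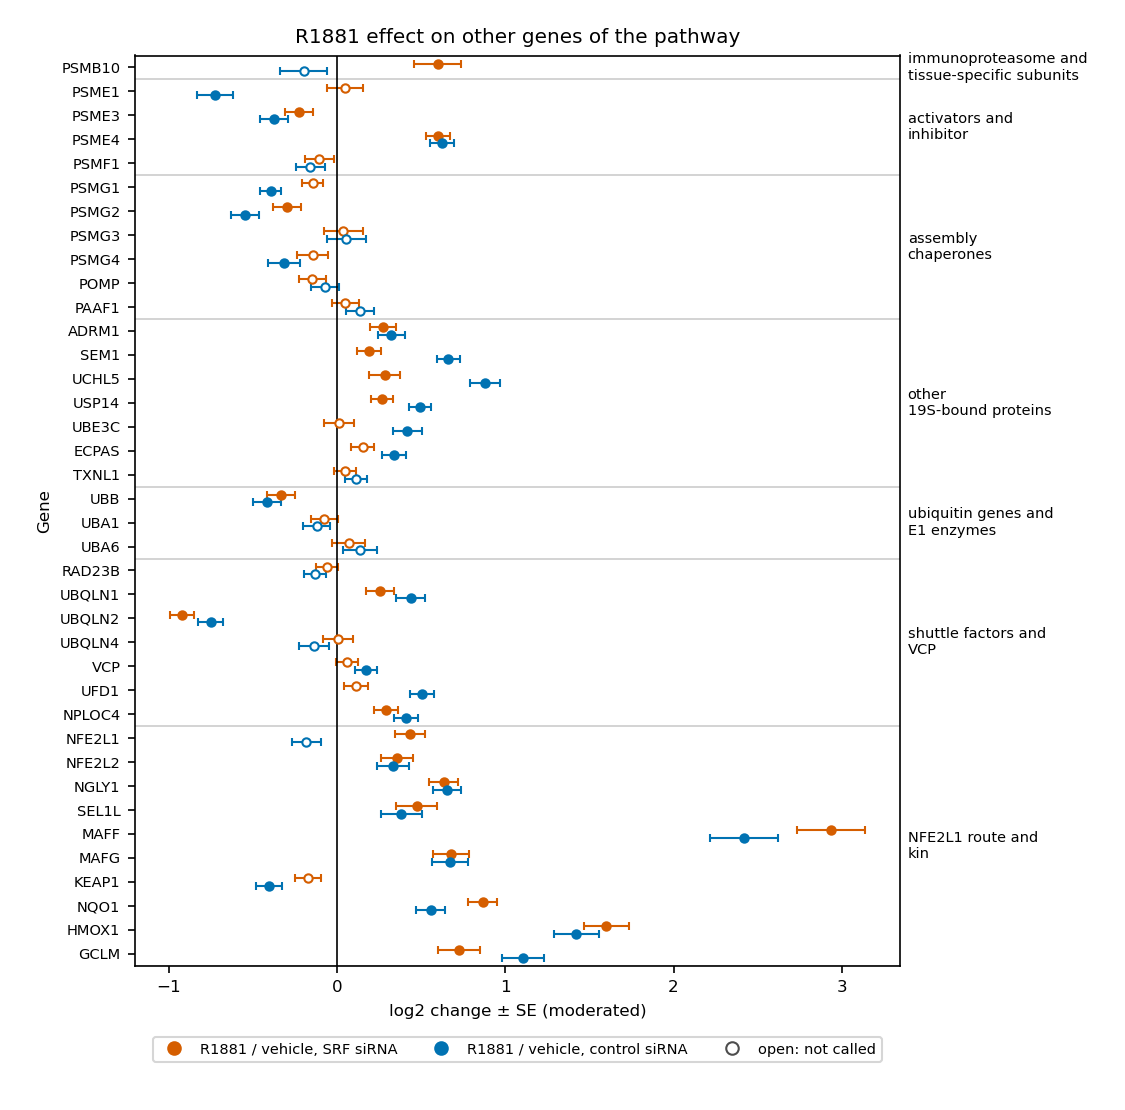
Log2 change with R1881 against vehicle for the other pathway genes tested (rows, by list), in SRF siRNA cells and in control siRNA cells; points are limma estimates, bars are ± 1 SE, and open points did not pass adjusted p under 0.05. In control cells 6 of 7 cap-bound proteins lie above 0 with filled points, 3 assembly chaperones lie below 0 with filled points, and MAFF and HMOX1 lie farthest to the right.

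Upstream of the particle, 1 of the 3 ubiquitin and E1 genes tested changed with R1881: UBB, a ubiquitin precursor, at -0.34 ± 0.08 in SRF siRNA cells and -0.42 ± 0.08 in control cells. Of 7 shuttle factor and VCP genes 2 rose and 1 fell in SRF siRNA cells, and 4 rose and 1 fell in control cells. UBQLN2, a ubiquitin shuttle, fell to 52.8% of vehicle in SRF siRNA cells and 59.4% in control cells. UFD1, a partner of the VCP segregase, was 0.11 in SRF siRNA cells, not called, and rose by 0.50 ± 0.07 in control cells, a difference of -0.39 ± 0.10 (adjusted p = 0.0154).

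The list built around NFE2L1 and its kin also holds NFE2L2, KEAP1, NQO1, HMOX1 and GCLM, so its counts do not single out NFE2L1. In this list 9 of 10 genes rose with R1881 in SRF siRNA cells, where 25.5% of all genes rose. In control cells 8 rose and 1 fell, where 26.9% of all genes rose and 33.8% fell. MAFF, a small partner of such factors, rose by 2.94 ± 0.20 in SRF siRNA cells and 2.42 ± 0.20 in control cells. The antioxidant gene HMOX1 rose by 1.60 ± 0.13 and 1.42 ± 0.13 in the same order. In vehicle, MAFF averaged 4.68 with SRF siRNA and 5.00 with control siRNA, and HMOX1 averaged 5.96 and 4.52. Apart from the 5.96 these lie near the filter at log2 4, which limits how well the size of the rises is known. NFE2L1 itself, named as the list's namesake and outside the naming rule, rose by 0.43 ± 0.09 in SRF siRNA cells and was -0.18 in control cells, not called there, a difference of 0.62 ± 0.12 (adjusted p = 0.00356). After SRF silencing NFE2L1 changed by 0.03 in R1881, not called, and fell by 0.59 in vehicle, while its relative NFE2L2 rose by 1.22 in R1881 and 1.20 in vehicle.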

How the data were processed

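RNA from LNCaP cells was hybridised to 12 Affymetrix expression arrays. The deposited values are log2 signals, made by the authors with GCRMA per the submitters' processing notes, whose version is not given in the sources used here. Scanner files were not used here. Of 54675 probe sets, 41091 carry 1 gene symbol in the platform annotation, 1801 several and 11721 none, and 41037 symbols matched a current one. Probe sets above log2 4 on at least 3 arrays were kept, and the one with the highest mean stood for its gene, which left 10265 genes. limma 3.58.1 in R 4.3.3 was fitted to all 4 groups on all 12 arrays, with Benjamini-Hochberg adjustment over all genes and a call at adjusted p under 0.05. It was tested on simulated data first. The number of arrays limits the precision.

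Genes were named by rule: per comparison the 3 largest called changes in each direction without overlap between groups, the catalytic genes, PSMD14, and the 2 largest called changes of each companion list. The members, the lists and the rule were chosen with earlier results of these data known. The labels number the arrays 1 to 3 in every group, and the numbers were not taken to pair them. Alternatives varied the filter, the floor, the probe set per gene, the scaling, a GAPDH covariate, a replicate block, the moderation of variances, which groups entered the fit, the threshold and single arrays.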

Additional observations from a re-analysis of the deposited data

Results flagged for a closer look

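The R1881 effect differed between SRF siRNA and control siRNA cells, by the interaction term of the limma fit, for 4 of the 30 proteasome genes, all with a lower effect under SRF siRNA. Over all genes tested the difference was called for 23.8%, and in the lower direction for 10.5%. The differences on the log2 scale were -0.808 for PSMD5, -0.404 for PSMC2, -0.357 for PSMD12 and -0.286 for PSMD11. PSMD5 kept its call under all 25 alternatives run, at -0.86 to -0.76. PSMC2 lost it when its passing probe sets were averaged (-0.10, adjusted p = 0.445) and under the 1.5-fold threshold. PSMD12 lost it under 6 alternatives and PSMD11 under 16 of the 25. Groups of 3 arrays are too small for the check on single far-lying samples, which was not run.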

How the results depend on the processing

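Counts of proteasome genes called are given here for 5 comparisons, against 11 for R1881 in SRF siRNA cells, 20 for R1881 in control cells, 11 for silencing in R1881, 15 for silencing in vehicle and 4 for the difference of R1881 effects. At adjusted p under 0.01 they were 4, 13, 7, 5 and 2, and at 1.5-fold or more 1, 3, 0, 1 and 1, in that order. Over all genes the shares called were 39.8%, 49.1%, 47.1%, 42.1% and 13.3% at adjusted p under 0.01, and 23.8%, 31%, 29.3%, 25.5% and 13.4% at 1.5-fold. The stricter thresholds call fewer genes by construction. With the GAPDH covariate the counts for R1881 were 4 and 8, and that for silencing in vehicle was 3. Of all genes 46.9%, 38.2% and 38.4% were called in these. In a fit of only the groups compared the counts were 7 for R1881 in SRF siRNA cells and 7 for silencing in vehicle. That fit called 48.9% and 52% of all genes. With passing probe sets averaged, 2 differences were called, and 25.2% of those over all genes. The PSMC2 change on silencing in R1881 then reversed to 0.061 (adjusted p = 0.43). In these the cause was not tested. Quantile normalization gave 8 higher and 4 lower for R1881 in SRF siRNA cells, against 9 and 2, and 10 higher and 5 lower for silencing in R1881, against 6 and 5, and 1 higher and 4 lower for the difference, against 0 and 4. For R1881 in control cells it gave 12 higher and 4 lower, against 16 and 4. For silencing in vehicle it gave 13 higher and 3 lower, against 12 and 3. Over all genes it called 53.7%, 61%, 59.1%, 57% and 24.8% in the order of the 5 comparisons. Without it these shares were 53.1%, 60.6%, 59%, 55.7% and 23.8%. The fit with a replicate block called 8, 18, 11, 14 and 3, and it moved no count by over 1.5 times. It called 51.8%, 59.9%, 57.7%, 54.4% and 21.4% of all genes. Deviations from the group mean correlated at -0.21 to 0.10 between same-numbered arrays (18 pairs) and at -0.07 to 0.21 between others (36 pairs), so not every array correlated best with its own number. Leaving out arrays gave 5 to 11, 16 to 21, 8 to 12, 9 to 15 and 2 to 4. Of all genes these fits called 45.7% to 53.3%, 56.1% to 61.3%, 53.6% to 59.5%, 49.8% to 56.4% and 18.5% to 22.8%. PSMD8 kept its R1881 call under all 26 alternatives in both siRNA states, at 0.95 to 1.10 with SRF siRNA and 0.81 to 0.96 with control siRNA. Of single-gene values under alternatives, 3462 kept their direction and stayed called or uncalled, 268 lost the call, 45 gained it and 1 reversed. The 3462 include values that were called neither at the outset nor under the alternative. The 94 others changed sign without being called. Signal near background limits the second probe sets of PSMB7 and PSMD5.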
